A study of Mus musculus with 6 samples.

Results

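Translation initiation factors bring the small ribosomal subunit, the initiator tRNA and an mRNA together at the start codon. Their genes were taken by name, as every gene of the deposited expression table whose symbol begins with Eif1, Eif2, Eif3, Eif4, Eif5 or Eif6. The eIF2 kinase genes Eif2ak1 to Eif2ak4, Eif2s1, Eif4ebp1 and pseudogenes with -ps in their symbol were left out. This gave 50 of 34745 genes by name alone. Of these 50 genes, 48 passed the filter on low counts and were tested. The other two, Eif4e1b and Eif4ebp3, had 0 counts in all 6 libraries, which allows up to 0.223 CPM (counts scaled to library size) in the shallowest library. Eif2c5 carries the older name of the Argonaute family, whose members act in small RNA silencing and not in initiation. It is counted among the 48 tested genes and left out of the role groups, which hold 47 tested genes.

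RNA sequencing was done on mouse spermatogonial stem cells in culture. These are the self-renewing germ cells of the testis from which sperm descend. One group of 3 libraries came from cultures given 100 µM bisphenol A (BPA), an estrogen-like compound used to make plastics, for about 4 days. The other group of 3 libraries came from untreated cultures. The donors of both groups were DBA/2J X c57BL/6J pups at postnatal day 6, and cells were used at passages 15 to 20. The titles name no vehicle for the untreated cultures, so an effect of a solvent cannot be told apart from one of BPA. No label says whether the replicates came from separate cultures or animals, and the spread that the p-values measure is that of these libraries and may be technical.

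In the textbook account, eIF1 and eIF1A hold the scanning ribosome open until the start codon is found. The eIF2 complex carries the initiator tRNA with GTP, and eIF2B recharges eIF2 with GTP after each round. The large eIF3 complex is the scaffold on the small subunit. The cap complex eIF4F, made of eIF4E, eIF4G and the helicase eIF4A, recruits the mRNA by its cap. Phosphorylation of eIF2 under stress blocks eIF2B, lowers general initiation and favours translation of the transcription factor ATF4. In the mouse testis the Y-linked eIF2 gamma gene Eif2s3y is known to be needed for spermatogonial proliferation.

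Library totals were 14232872 to 22286517 counts in BPA and 13453280 to 19183912 counts in untreated libraries, and the 50 genes took 1.62% to 1.68% and 1.76% to 1.88% of them. All 10 germ cell markers on the list were detected, with summed levels of 2054 to 2612 CPM in BPA and 2503 to 2531 CPM in untreated libraries. Of these markers 1 (Sall4) was higher and 2 (Id4 and Uchl1) were lower under BPA. Summed Sertoli cell markers were at 29.7 to 48.9 CPM in BPA and 13.6 to 16.2 CPM in untreated libraries, where 1 of 3 tested markers (Sox9) was higher and Fshr and Rhox5 had no counts. Summed fibroblast markers were at 228 to 479 CPM in BPA and 304 to 350.4 CPM in untreated libraries. Macrophage markers summed to 26.3 to 43.1 CPM in BPA and 49.0 to 54.0 CPM in untreated libraries, Leydig and peritubular markers to 6.81 to 12.7 CPM and 11.9 to 13.3 CPM, and meiotic and later germ cell markers to 15.8 to 128 CPM and 26.8 to 51.8 CPM. Of the tested markers of these last lists, 8 for fibroblasts, 1 for macrophages, 2 for Leydig and peritubular cells and 2 for meiotic cells, none passed, and Cyp17a1, Hsd3b1 and Acrv1 had no counts. The part of these markers in the results was not tested, and in bulk RNA fewer cells of a type and less RNA per cell cannot be told apart.

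BPA replicate 2 stood apart from the other BPA libraries by base composition. The deviation of each gene from its group mean (log2 CPM) followed the GC content of its longest transcript in BPA replicate 2, with a Spearman's rho of 0.63 over 13270 genes and 0.82 over the 48 tested initiation factor genes. In BPA replicates 1 and 3 the same rho was -0.37 and -0.49 over all genes and -0.74 and -0.79 over the 48. It lay between -0.32 and 0.19 over the 48 in the untreated libraries. The points share a library, and the deviations of a group sum to 0, so these values are a description. Of 18 tested initiation factor genes with a GC content below 45%, all 18 had their lowest BPA value in replicate 2. Of the other 30, BPA replicate 2 gave the highest BPA value in 21, the lowest in 4 and the middle one in 5. Over all tested genes replicate 2 was the lowest BPA library for 76.3% of those below 45% GC and for 23.3% of the rest. Genes that passed are given below with and without BPA replicate 2, and other genes also where that library changed the call.

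**Figure D1:**
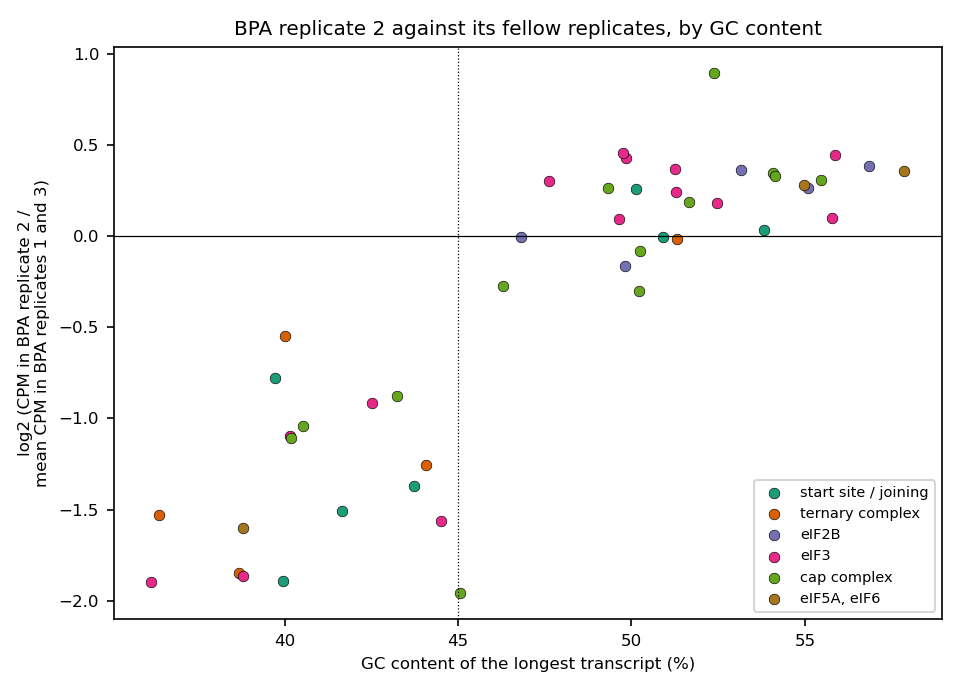
Each point is 1 of 47 tested initiation factor genes, coloured by role, with the GC content of its longest transcript (%) on the x axis and the log2 ratio of its CPM in BPA replicate 2 to the mean of BPA replicates 1 and 3 on the y axis. The 17 genes left of the dotted line at 45% lie between -1.90 and -0.55, and the 30 genes to its right have a median of 0.26 and a range of -1.96 to 0.90.

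The comparison asked how the messages of the initiation machinery differed in BPA cultures from those in untreated ones. With all libraries and no correction, 5 genes passed as higher and 5 as lower, and within eIF3 both directions occurred. Without BPA replicate 2 the counts were 13 and 10, and with GC and length corrected 7 and 9. With all libraries and no correction, 0 of the 18 genes below 45% GC passed as higher and 0 as lower. The equal counts therefore come only from genes at or above 45% GC. The share of all tested genes that passed in this GC class was not counted. In that fit Eif1, Eif1b, Eif3c, Eif4g1 and Eif4g3 were higher under BPA, and Eif2b5, Eif2d, Eif3h, Eif3i and Eif5a were lower. Eif4g3 changed by 1.64 on the log2 scale, and the other changes were smaller than 2-fold with all libraries and no correction. With GC and length corrected (below) Eif1b was at 1.08 and Eif3i at -1.06, both past 2-fold. The median log2 fold change over the 48 tested genes was 0.11, beside 0.10 over all 13287 genes tested. With GC and length corrected these medians were -0.014 and 0.016.

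The test was edgeR's quasi-likelihood test on the deposited counts with Benjamini-Hochberg adjustment over all genes tested, at a threshold of 0.05, and every adjusted p below comes from it unless another tool is named. Of the 48 genes 5 were higher (10.4%), beside 4.37% of all genes tested, and 5 were lower (10.4%), beside 6.28% of all genes tested. Initiation factor genes are abundant: their median level was 141 CPM, beside 16.3 CPM for all tested genes. Among genes of at least 100 CPM, 7.17% were higher and 18.5% lower, and of the 27 initiation factor genes at that level 4 were higher (14.8%) and 5 lower (18.5%). Of the 48 genes, 9 had every BPA value above every untreated one (18.8%) and 12 every BPA value below (25%), beside 15.6% and 15.7% of all genes tested. With DESeq2 size factors 5 of the 48 were higher and 8 lower, beside 4.3% and 6.83% of all genes tested, and with plain library sizes 7 and 7, beside 6.25% and 5.92%. The median over all genes tested was 0.21 (log2) under plain library sizes.

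Leaving out BPA replicate 2 gave 13 higher and 10 lower genes among the 48, beside 8.81% and 11.7% of all genes tested in that fit. All 10 genes named above passed there in the same direction. Fold changes followed GC content more closely without BPA replicate 2, with a Spearman's rho of -0.57 over the 48 genes, against -0.36 with all libraries. Over all genes tested it was -0.40, against -0.25. Of the 18 genes below 45% GC, 7 were higher and 0 lower without BPA replicate 2. Of the other 30, 6 were higher and 10 lower. The shares of all genes tested passing in each GC class were not counted. The split is therefore not told apart from the trend over all genes. With all libraries the median log2 fold change was 0.39 over all 2956 tested genes below 45% GC and 0.017 over 10317 others. Correcting the counts library by library for GC content and for length gave 7 higher and 9 lower genes, beside 6.56% and 9.03% of all genes tested, and again held all 10. The correction was fitted to deviations from the mean of all 6 libraries. It therefore also removes any difference between the groups that follows GC content or length, whatever its source. There were 2 higher and 3 lower without BPA replicate 1, beside 1.64% and 2.51% of all genes tested, and 3 and 3 without BPA replicate 3, beside 2.15% and 3.08%. Leaving out untreated replicate 1 gave 0 and 3, beside 1.18% and 2.06%. Leaving out untreated replicate 2 gave 1 and 2, beside 1.41% and 2.31%, and leaving out untreated replicate 3 gave 5 and 4, beside 2.44% and 3.44%.

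**Figure D2:**
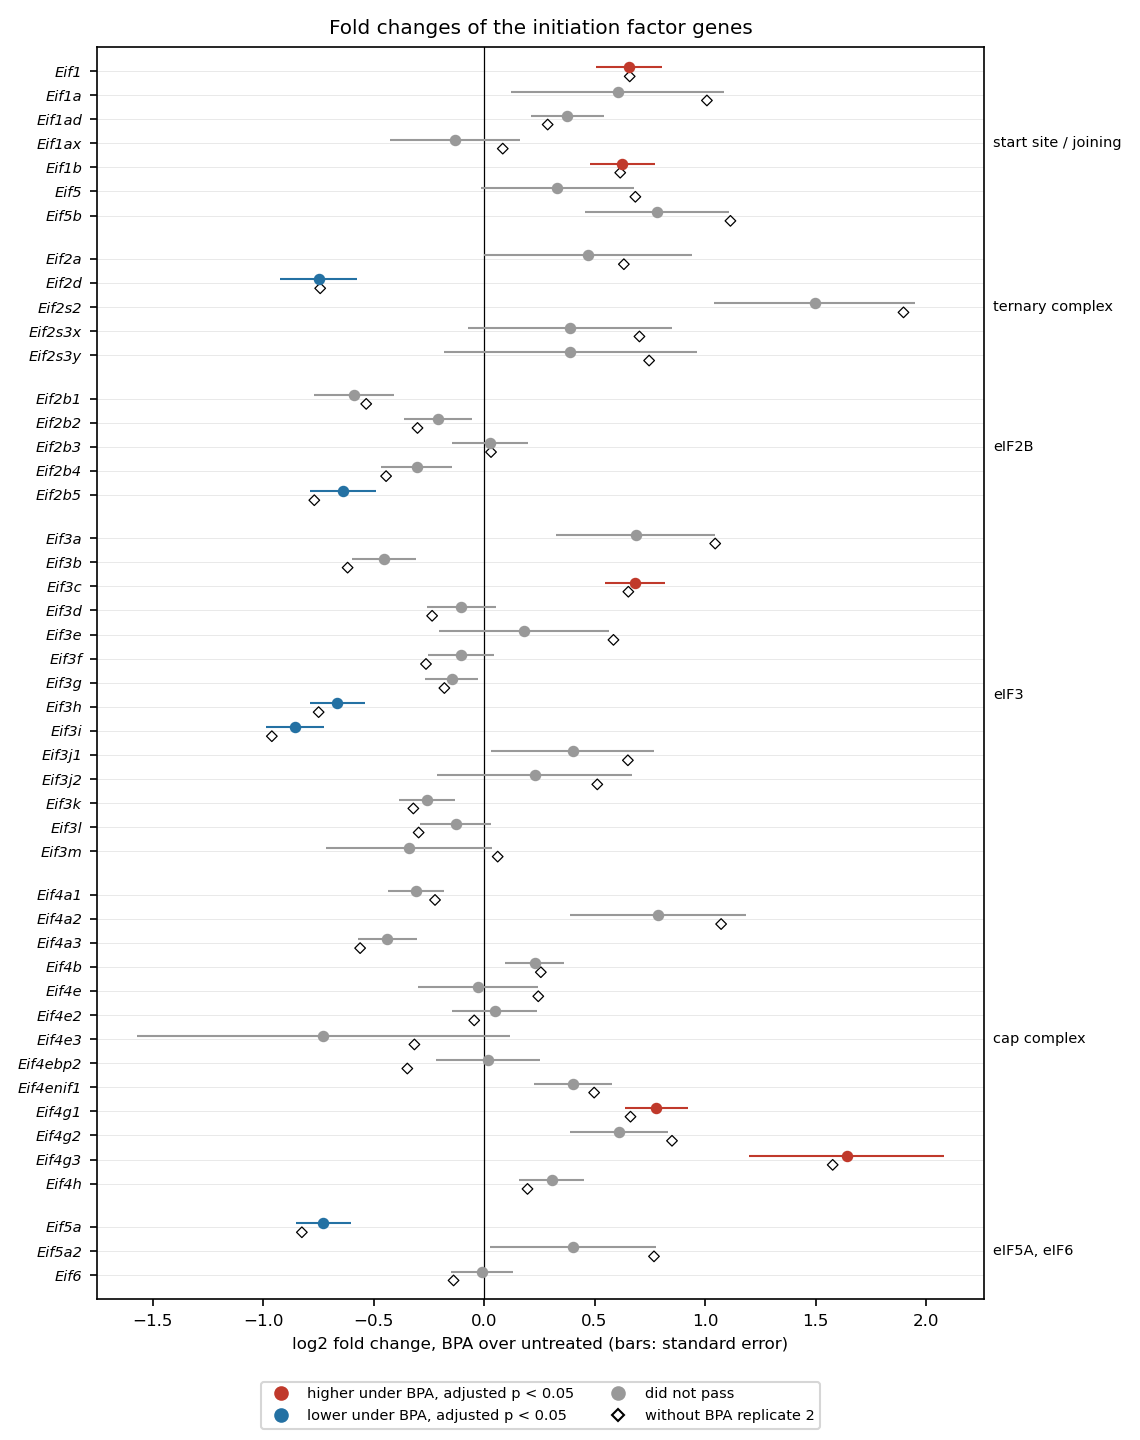
Rows are the 47 tested initiation factor genes by role, and the x axis is the log2 fold change of BPA over untreated, with bars for its standard error (3 libraries per group). Filled red points mark the 5 higher and blue points the 5 lower genes, grey points the genes that did not pass, and open diamonds the values without BPA replicate 2.

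Promoters were searched for shared motifs. RefSeq promoter windows (build GRCm38.p6, 250 bases before to 50 after each start) were found for 39 of the 50 genes, among them 8 of the 10 that passed. Motifs were searched by their letters on both strands. The E-box CACGTG, bound by MYC and related factors, was in a window of 10 of the 39 genes (25.6%), beside 12.2% of tested genes and 7.15% of all windows. The ETS core CCGGAAG was in 15 (38.5%), beside 19.7% of tested genes and 8.86% of all windows. The ATF4 element TGATGNAAT was in 0 of 39, beside 0.534% of tested genes and 0.965% of all windows, and the cyclic AMP element TGACGTCA in 0 of 39, beside 3.62% and 1.79%. The NRF1 element was in 1 (2.56%), beside 2.29% and 0.971%. None of these motifs contains another, and they were chosen with the results known. The E-box was present in genes that rose (Eif1b, Eif4g1), in one that fell (Eif5a) and in genes that did not pass. A match is a description and not a binding site. The 120 bases before the start are shown for 4 genes that passed, to show an E-box before genes that moved in opposite directions and the ETS core before Eif3c, with these motifs in capitals.
Eif1b: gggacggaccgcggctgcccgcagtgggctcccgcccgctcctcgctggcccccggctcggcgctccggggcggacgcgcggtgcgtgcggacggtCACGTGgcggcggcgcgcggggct
Eif4g1: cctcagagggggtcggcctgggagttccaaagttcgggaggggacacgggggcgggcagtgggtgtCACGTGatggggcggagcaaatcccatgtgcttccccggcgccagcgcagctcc
Eif3c: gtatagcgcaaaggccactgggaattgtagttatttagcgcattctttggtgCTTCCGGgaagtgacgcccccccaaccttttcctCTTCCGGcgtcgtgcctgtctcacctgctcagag
Eif5a: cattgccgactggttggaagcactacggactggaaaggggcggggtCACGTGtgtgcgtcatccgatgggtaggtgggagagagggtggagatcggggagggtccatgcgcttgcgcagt
These are chr9:120492486-120492605, plus strand for Eif1b, chr16:20672607-20672726, plus strand for Eif4g1, chr7:126566367-126566486, minus strand for Eif3c and chr11:69921387-69921506, minus strand for 1 of the Eif5a starts. The RefSeq starts used for Eif3c, Eif4g1 and Eif5a lie inside the gene spans given below, downstream of their outer ends. In Eif3c both capitals spell the ETS core as its complement.

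Among the factors that choose the start site and join the subunits, 2 of 7 tested genes were higher and 0 lower. Over all genes tested the shares were 4.37% and 6.28%. The median log2 fold change was 0.60, beside 0.10 over all genes tested. When BPA replicate 2 was left out 4 were higher, beside 8.81% of all genes tested. When GC and length were corrected 2 were higher, beside 6.56%, with a median of 0.20, beside 0.016. Both that rose encode forms of eIF1, the small protein that keeps the scanning ribosome open and rejects wrong start codons.

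Eif1 (ENSMUSG00000035530, chromosome 11, 100319885 to 100322096, mm10) was at 308, 315 and 323 CPM in BPA replicates 1 to 3, against 187, 184 and 230.5 CPM in untreated replicates 1 to 3. All 3 BPA values lay above all 3 untreated ones, and BPA replicate 2 sat between its fellow replicates. The change on the log2 scale was 0.66 (SE 0.15, edgeR adjusted p = 0.0162), and 0.66 without BPA replicate 2. Eif1b (ENSMUSG00000006941, chromosome 9, 120492606 to 120495327), a close paralogue, was at 273, 287 and 287 CPM in BPA replicates 1 to 3, against 194, 161 and 194 CPM in untreated replicates 1 to 3. Its groups were likewise separate, with a log2 fold change of 0.63 (SE 0.15, edgeR adjusted p = 0.0192), and 0.62 without BPA replicate 2 and 1.08 with GC and length corrected. The ratio of Eif1 to Eif1b per kilobase of exon was 0.605, 0.589 and 0.604 in BPA replicates 1 to 3 and 0.518, 0.611 and 0.636 in untreated replicates 1 to 3, so the balance of the paralogues overlapped between the groups. The Eif1 call was lost without BPA replicate 1 or untreated replicate 1 or 2 (edgeR adjusted p as high as 0.109), and the Eif1b call without BPA replicate 1 or 3 or untreated replicate 1 or 2 (up to 0.119). A share of 12.7% of the exon length of Eif1b overlaps a gene on the opposite strand, and the library kit does not mark strand.

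The other members of this step did not pass. Eif5b, the GTPase that joins the large subunit, was at 64.2, 25.2 and 66.2 CPM in BPA cultures, against 28.5, 28.3 and 33.6 CPM in untreated cultures. Its BPA replicates 1 and 3 lay well above every untreated library, while BPA replicate 2 lay below them all. Its log2 fold change was 0.78 (SE 0.33, edgeR adjusted p = 0.157), and 1.11 without BPA replicate 2 (edgeR adjusted p = 0.00183). The corrected value for GC and length was 0.20 (edgeR adjusted p = 0.597). Rev1, on the opposite strand, shares 16.9% of the exon length of Eif5b.

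Eif5, whose product triggers GTP hydrolysis on eIF2, was at 65.3, 28.5 and 96.7 CPM in BPA cultures, against 58.02, 42.3 and 51.1 CPM in untreated cultures. It had the same order, with BPA replicate 2 the lowest of the 6 libraries, a log2 fold change of 0.33 (edgeR adjusted p = 0.602), 0.68 without BPA replicate 2 (edgeR adjusted p = 0.0371), and -0.21 with GC and length corrected (edgeR adjusted p = 0.58). The eIF1A genes Eif1a and Eif1ax encode near-identical proteins, so reads could be split between them and their values are uncertain. Eif1a was at 28.9, 5.90 and 14.8 CPM in BPA cultures, against 10.8, 10.05 and 11.8 CPM in untreated cultures, and Eif1ax at 32.7, 20.4 and 37.1 CPM in BPA cultures, against 25.6, 32.2 and 41.4 CPM in untreated cultures. Both overlapped between the groups. Eif1ad, named for an eIF1A domain, was at 154, 207 and 191 CPM in BPA cultures, against 131, 148 and 146 CPM in untreated cultures, with no overlap, and did not pass (edgeR adjusted p = 0.174).

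Genes of the ternary complex and of tRNA delivery gave 0 higher and 1 lower of 5 tested. The shares over all genes tested were 4.37% and 6.28%. The median log2 fold change was 0.39, beside 0.10 over all genes tested. With GC and length corrected the median was 0.11, beside 0.016. Eif2d (ENSMUSG00000026427, chromosome 1, 131153181 to 131187658), which encodes a factor that can place tRNA in the ribosome without GTP, was at 85.9, 82.2 and 80.1 CPM in BPA replicates 1 to 3, against 152, 149.8 and 115 CPM in untreated replicates 1 to 3. The 3 BPA values were close together and all lay below the untreated ones. As a log2 fold change this was -0.75 (SE 0.17, edgeR adjusted p = 0.0191), and -0.74 without BPA replicate 2. The call was lost without BPA replicate 1 or 3 or untreated replicate 1 or 2 (edgeR adjusted p up to 0.115).

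Eif2s2, the eIF2 beta subunit gene, was at 83.01, 21.01 and 68.5 CPM in BPA replicates 1 to 3, against 11.2, 22.4 and 27.7 CPM in untreated replicates 1 to 3. BPA replicates 1 and 3 exceeded every untreated library, and BPA replicate 2 lay among the untreated values. Its log2 fold change of 1.5 (SE 0.45) did not pass (edgeR adjusted p = 0.0548). It passed without BPA replicate 2, at 1.90 (edgeR adjusted p = 0.00129), with GC and length corrected at an edgeR adjusted p of 0.0422, and in DESeq2 (adjusted p = 0.00448). It did not pass in limma-voom (adjusted p = 0.121). Nor did it with plain library sizes, DESeq2 size factors or a replicate block (edgeR adjusted p = 0.0652, 0.0588 and 0.0715). Its transcript has a GC content of 38.7%.

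The eIF2 gamma subunit has an X-linked and a Y-linked gene. Eif2s3x was at 16.2, 7.14 and 17.9 CPM in BPA cultures, against 5.31, 12.3 and 13.9 CPM in untreated cultures. Eif2s3y was at 8.38, 2.58 and 6.48 CPM in BPA cultures, against 4.71, 4.87 and 3.70 CPM in untreated cultures. For both, BPA replicate 2 lay well below the other BPA libraries, the groups overlapped, and neither passed (edgeR adjusted p = 0.654 and 0.726). The log2 fold changes were 0.39 (SE 0.46) and 0.39 (SE 0.57), and without BPA replicate 2 0.70 and 0.75 (edgeR adjusted p = 0.283 and 0.38). The genes are similar in sequence, so reads could be split between them. The ratio of Eif2s3x to Eif2s3y per kilobase was 2.11, 3.02 and 3.02 in BPA replicates 1 to 3 and 1.23, 2.76 and 4.11 in untreated replicates 1 to 3, again with overlap. Eif2a, which encodes a separate factor and not an eIF2 subunit, was at 11.1, 8.23 and 13.01 CPM in BPA cultures, against 5.81, 4.39 and 13.1 CPM in untreated cultures, and its groups overlapped.

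The eIF2B complex, the exchange factor that is blocked when eIF2 is phosphorylated, had 1 of 5 subunit genes lower and 0 higher. Of all genes tested 6.28% were lower and 4.37% higher. The median log2 fold change was -0.31, beside 0.10 over all genes tested. Without BPA replicate 2 the number lower was 3, beside 11.7% of all genes tested. With GC and length corrected it was 2, beside 9.03%, with a median of -0.32, beside 0.016. Eif2b5 (ENSMUSG00000003235, chromosome 16, 20498817 to 20509955), the catalytic epsilon subunit gene, was at 374, 466 and 349.8 CPM in BPA replicates 1 to 3, against 557, 644 and 650.4 CPM in untreated replicates 1 to 3. Every BPA value lay below every untreated one, and BPA replicate 2 was the highest of the BPA libraries. On the log2 scale the fold change was -0.64 (SE 0.15, edgeR adjusted p = 0.0196), and -0.77 without BPA replicate 2. The call was lost on leaving out any of the other libraries (edgeR adjusted p up to 0.107).

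Eif2b1, the alpha subunit gene, was at 59.9, 59.6 and 73.4 CPM in BPA cultures, against 88.98, 99.5 and 102 CPM in untreated cultures, without overlap. It just missed the threshold at -0.59 (SE 0.18, edgeR adjusted p = 0.0576), and passed without BPA replicate 2 (edgeR adjusted p = 0.0343), with GC and length corrected (edgeR adjusted p = 0.0129) and in DESeq2 (adjusted p = 0.0143). It also passed with DESeq2 size factors or a replicate block (edgeR adjusted p = 0.048 and 0.0496). In limma-voom (adjusted p = 0.0575) and with plain library sizes (edgeR adjusted p = 0.114) it did not pass. With any other library left out it did not pass either (edgeR adjusted p up to 0.209). Eif2b2, for the beta subunit, was at 155, 177 and 139 CPM in BPA cultures, against 186, 177 and 180.3 CPM in untreated cultures, with BPA replicate 2 barely below the lowest untreated library, and did not pass (edgeR adjusted p = 0.439). Eif2b4, for the delta subunit, was at 168, 229 and 183 CPM in BPA cultures, against 252, 219.8 and 243 CPM in untreated cultures. Its groups overlapped through BPA replicate 2, and without that library it passed at -0.44 (edgeR adjusted p = 0.0173), while with GC and length corrected it was at -0.08 (edgeR adjusted p = 0.738). Eif2b3, for the gamma subunit, was at 93.4, 96.04 and 99.4 CPM in BPA cultures, against 81.5, 98.4 and 104 CPM in untreated cultures and overlapped fully.

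**Figure D3:**
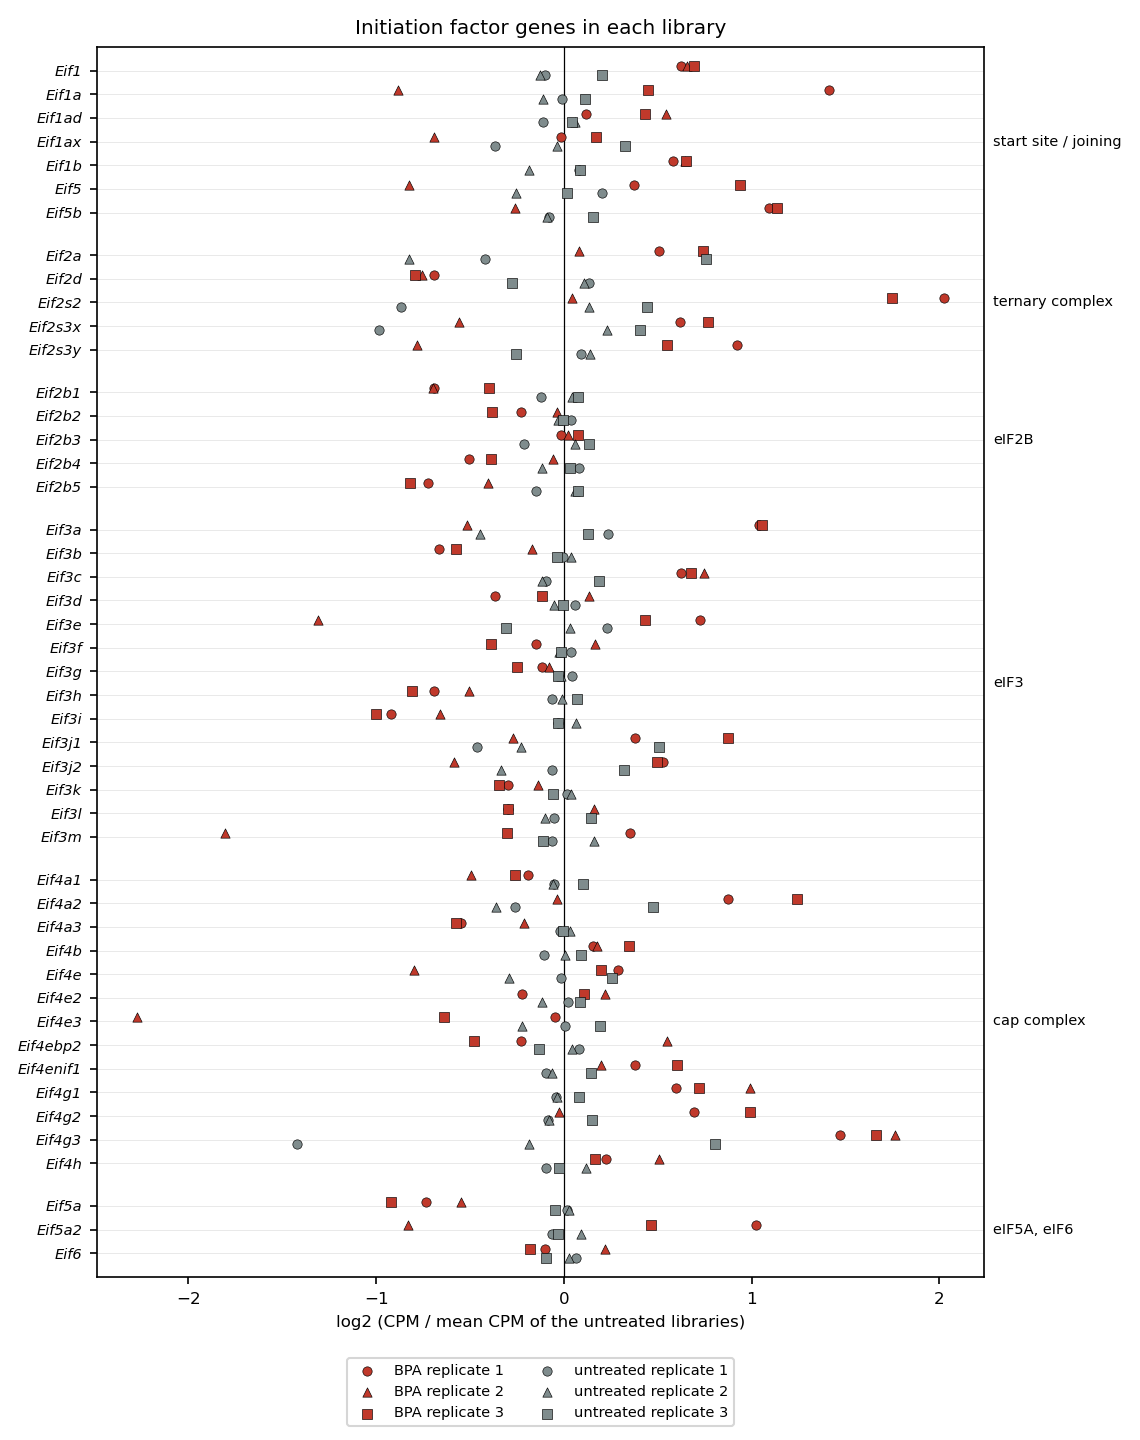
Each point is the CPM of a gene in 1 library divided by the mean of the 3 untreated libraries, on a log2 axis, with BPA libraries in red and untreated ones in grey and the replicate given by the symbol. The red triangles of BPA replicate 2 lie to the left of the other red symbols for all 17 plotted genes below 45% GC, and the 10 genes that passed show 3 red symbols on 1 side of all grey ones.

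Of the 14 tested eIF3 genes, which encode the scaffold of the 43S complex, 1 was higher and 2 were lower. Over all genes tested the shares were 4.37% and 6.28%. The median log2 fold change was -0.12, beside 0.10 over all genes tested. Without BPA replicate 2 there were 3 higher and 4 lower, beside 8.81% and 11.7%. With GC and length corrected there were 1 and 4, beside 6.56% and 9.03%, at a median of -0.17, beside 0.016. The 3 that passed moved against each other within 1 complex.

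Eif3c (ENSMUSG00000030738, chromosome 7, 126546455 to 126566411), for a core subunit that binds eIF1 and eIF5, was at 721, 786 and 748 CPM in BPA replicates 1 to 3, against 439, 432 and 533 CPM in untreated replicates 1 to 3. The groups were far apart, and BPA replicate 2 was slightly above its fellow replicates. Its log2 fold change was 0.68 (SE 0.14, edgeR adjusted p = 0.0086), and 0.65 without BPA replicate 2. The call was lost without untreated replicate 1 or 2 (edgeR adjusted p up to 0.0785).

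Eif3i (ENSMUSG00000028798, chromosome 4, 129591960 to 129600648), for a propeller-shaped subunit that joins eIF3b and eIF3g, was at 746, 895 and 705 CPM in BPA replicates 1 to 3, against 1383, 1476 and 1382 CPM in untreated replicates 1 to 3. The log2 fold change was -0.85 (SE 0.13, edgeR adjusted p = 0.00176), -0.96 without BPA replicate 2 and -1.06 with GC and length corrected. It passed without each library in turn (edgeR adjusted p up to 0.0251). Eif3h (ENSMUSG00000022312, chromosome 15, 51786558 to 51865481) was at 1018, 1159 and 939 CPM in BPA replicates 1 to 3, against 1576, 1633 and 1729 CPM in untreated replicates 1 to 3. It changed by -0.66 (SE 0.13, edgeR adjusted p = 0.00645), by -0.75 without BPA replicate 2 and by -0.43 with GC and length corrected, and missed the threshold with untreated replicate 2 left out (edgeR adjusted p = 0.0516). For both genes BPA replicate 2 was the highest BPA library and still below every untreated one.

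The ratio of Eif3c to Eif3i per kilobase of exon, a pair chosen after their values were seen, was 1.02, 0.926 and 1.12 in BPA replicates 1 to 3 and 0.334, 0.309 and 0.406 in untreated replicates 1 to 3. The ratio restates both calls and is no further result.

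Eif3b and Eif3g, the genes of the partners of eIF3i, did not pass. Eif3b was at 793, 1116 and 843 CPM in BPA cultures, against 1254, 1291 and 1226 CPM in untreated cultures, all BPA values below all untreated ones, and missed the threshold at -0.45 (SE 0.14, edgeR adjusted p = 0.0656). It passed without BPA replicate 2, at -0.62 (edgeR adjusted p = 0.000264), and with GC and length corrected, at -0.30 (edgeR adjusted p = 0.0169). It also passed in DESeq2 (adjusted p = 0.0158) and limma-voom (adjusted p = 0.0395). So it did with plain library sizes, DESeq2 size factors or a replicate block (edgeR adjusted p = 0.033, 0.0489 and 0.0328). With any other library left out it did not pass (edgeR adjusted p up to 0.267). Eif3g, among the most abundant eIF3 genes per length, was at 869, 891 and 793 CPM in BPA cultures, against 972, 931 and 923 CPM in untreated cultures. Its small separation did not pass (log2 fold change -0.15, SE 0.12, edgeR adjusted p = 0.491) and turned to 0.18 after the GC and length correction. Eif3k was at 630.4, 705 and 609.9 CPM in BPA cultures, against 785, 795 and 745 CPM in untreated cultures, also without overlap, and passed only without BPA replicate 2 among the fits (edgeR adjusted p = 0.228 with all libraries and 0.0191 without that one). With GC and length corrected its log2 fold change was -0.14, against -0.26 uncorrected (edgeR adjusted p = 0.262 corrected).

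Several eIF3 genes with AT-rich transcripts had very unequal BPA libraries. Eif3a, for the largest scaffold subunit, was at 76.5, 26.1 and 77.3 CPM in BPA cultures, against 43.8, 27.3 and 40.6 CPM in untreated cultures. Eif3e was at 105, 25.6 and 85.8 CPM in BPA cultures, against 74.4, 64.98 and 51.3 CPM in untreated cultures, and Eif3m at 183, 40.9 and 116 CPM in BPA cultures, against 137, 159.7 and 132 CPM in untreated cultures. In all 3, BPA replicate 2 was the lowest of the 6 libraries. With all libraries none passed (edgeR adjusted p = 0.262, 0.821 and 0.626). Without BPA replicate 2, Eif3a was at 1.05 (edgeR adjusted p = 0.00517), Eif3e at 0.59 (edgeR adjusted p = 0.0434) and Eif3m at 0.06 (edgeR adjusted p = 0.868). After the GC and length correction they were at 0.14, -0.25 and -0.66, and Eif3m passed as lower (edgeR adjusted p = 0.0381). Eif3e and Eif3m thus had opposite signs in different fits.

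The remaining eIF3 genes overlapped between the groups. Eif3d was at 290.02, 411 and 346 CPM in BPA cultures, against 390.3, 361 and 373 CPM in untreated cultures, Eif3f at 824, 1026 and 699 CPM in BPA cultures, against 940.3, 899.9 and 904 CPM in untreated cultures, and Eif3l at 377, 518 and 376 CPM in BPA cultures, against 446, 432 and 512 CPM in untreated cultures. Of the exon length of Eif3d, 43.3% overlaps a gene on the opposite strand. Eif3j1 was at 22.5, 14.3 and 31.6 CPM in BPA cultures, against 12.5, 14.8 and 24.5 CPM in untreated cultures and its copy Eif3j2 at 11.1, 5.15 and 10.9 CPM in BPA cultures, against 7.40, 6.12 and 9.65 CPM in untreated cultures, and since reads could be split between the copies both values are uncertain.

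In the cap complex and its binding partners 2 of 13 tested genes were higher and 0 lower. The shares over all genes tested were 4.37% and 6.28%. The median log2 fold change was 0.23, beside 0.10 over all genes tested. Without BPA replicate 2 the counts were 4 and 1, beside 8.81% and 11.7%. With GC and length corrected they were 3 and 1, beside 6.56% and 9.03%, at a median of 0.05, beside 0.016. The 13 genes include Eif4a3, of the exon junction complex, and the 1 lower without BPA replicate 2 was that gene. The 1 lower with GC and length corrected was Eif4a1. Both genes that rose with all libraries and no correction encode forms of eIF4G. This is the scaffold that links the cap-binding protein to the helicase and to eIF3.

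Eif4g1 (ENSMUSG00000045983, chromosome 16, 20668313 to 20692884) was at 752, 988 and 817 CPM in BPA replicates 1 to 3, against 481, 483 and 524 CPM in untreated replicates 1 to 3. The BPA values lay far above the untreated ones, with BPA replicate 2 the highest. The log2 fold change was 0.78 (SE 0.14, edgeR adjusted p = 0.00489), and 0.66 without BPA replicate 2. Only with untreated replicate 1 left out did it miss the threshold (edgeR adjusted p = 0.053). Eif4g3 (ENSMUSG00000028760, chromosome 4, 137993022 to 138208508) was at 35.4, 43.3 and 40.4 CPM in BPA replicates 1 to 3, against 4.77, 11.2 and 22.4 CPM in untreated replicates 1 to 3. The BPA libraries were close together and above the untreated ones, which were uneven and lowest in replicate 1. Its log2 fold change was 1.64 (SE 0.44, edgeR adjusted p = 0.0337), and 1.58 without BPA replicate 2. The call was lost without BPA replicate 1 or 3 or untreated replicate 1 or 2 (edgeR adjusted p up to 0.128).

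Eif4g2, also called DAP5, lacks the eIF4E-binding part and serves initiation without the cap-binding protein. It was at 265, 161 and 326 CPM in BPA cultures, against 155, 155 and 182 CPM in untreated cultures. BPA replicates 1 and 3 were above every untreated library and BPA replicate 2 was among them. It did not pass (log2 fold change 0.61, SE 0.22, edgeR adjusted p = 0.106), passed without BPA replicate 2 at 0.85 (edgeR adjusted p = 0.00068), and was at 0.05 with GC and length corrected (edgeR adjusted p = 0.804).

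No helicase gene of the eIF4A family passed with all libraries. Eif4a1, the main helicase of the cap complex, was at 1297, 1049 and 1237 CPM in BPA cultures, against 1429, 1422 and 1589 CPM in untreated cultures. All BPA values lay below the untreated ones, and the log2 fold change of -0.31 (SE 0.13) did not pass (edgeR adjusted p = 0.152). After the GC and length correction it passed at -0.58 (edgeR adjusted p = 0.000525). Eif4a3, a helicase of the exon junction complex rather than of initiation, was at 819, 1032 and 804 CPM in BPA cultures, against 1179.8, 1223 and 1192 CPM in untreated cultures. It was separate between the groups and missed the threshold at -0.44 (SE 0.13, edgeR adjusted p = 0.0564). It passed without BPA replicate 2 (edgeR adjusted p = 0.000414) and in DESeq2 (adjusted p = 0.0117). With GC and length corrected it was at -0.18 and did not pass (edgeR adjusted p = 0.123).

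Eif4a2, the second cap complex helicase, was at 20.3, 10.8 and 26.3 CPM in BPA cultures, against 9.26, 8.63 and 15.4 CPM in untreated cultures. Its groups overlapped (log2 fold change 0.79, SE 0.40, edgeR adjusted p = 0.242), and without BPA replicate 2 it was at 1.07 (edgeR adjusted p = 0.0513). The ratio of Eif4a1 to Eif4a2 per kilobase was 78.7, 119.6 and 58.03 in BPA replicates 1 to 3 and 190.1, 203 and 127 in untreated replicates 1 to 3, lower in each BPA library than in each untreated one, and no test was made of it. A processed copy, Eif4a-ps4, had 259 to 679 counts in BPA and 235 to 571 in untreated libraries, so some reads of this family may be assigned to copies.

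Eif4e, the cap-binding protein itself, was at 91.1, 42.9 and 85.4 CPM in BPA cultures, against 73.8, 60.8 and 88.97 CPM in untreated cultures. BPA replicate 2 was the lowest of the 6, the others overlapped, and the gene did not pass (log2 fold change -0.03, SE 0.27, edgeR adjusted p = 0.968). Its relative Eif4e2, which binds caps without recruiting eIF4G, was at 60.9, 82.7 and 76.6 CPM in BPA cultures, against 72.1, 65.6 and 75.4 CPM in untreated cultures, also overlapping. Eif4e3 was at 3.01, 0.644 and 2.00 CPM in BPA cultures, against 3.12, 2.67 and 3.56 CPM in untreated cultures. Eif4ebp2, which encodes a repressor that masks eIF4E, was at 130.3, 223 and 109.5 CPM in BPA cultures, against 161, 157 and 139 CPM in untreated cultures and overlapped.

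Eif4b and Eif4h, helpers of the cap complex, and the eIF4E transporter gene Eif4enif1 were higher in every BPA library than in any untreated one without passing. Eif4b, which stimulates the helicase, was at 527, 534 and 602 CPM in BPA cultures, against 440.4, 476 and 504 CPM in untreated cultures (edgeR adjusted p = 0.314). Eif4h, a related cofactor, was at 363, 441 and 349 CPM in BPA cultures, against 291, 337 and 305 CPM in untreated cultures (edgeR adjusted p = 0.22, and 0.0255 with GC and length corrected). Eif4enif1, which carries eIF4E into the nucleus, was at 116, 102 and 135 CPM in BPA cultures, against 83.3, 85.4 and 98.5 CPM in untreated cultures (log2 fold change 0.40, edgeR adjusted p = 0.181, and 0.0302 without BPA replicate 2). With GC and length corrected it was at 0.22 (edgeR adjusted p = 0.384).

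Eif5a (ENSMUSG00000078812, chromosome 11, 69916714 to 69921958) encodes eIF5A, which helps the ribosome past difficult peptide bonds and is the only known protein with the modified lysine hypusine. It was the most abundant of the initiation factor genes per length in both groups, with 698 ± 91.1 CPM per kilobase in BPA cultures and 1155 ± 32.03 in untreated cultures (SD, n = 3 each). By library it was at 1649, 1880.3 and 1448 CPM in BPA replicates 1 to 3, against 2781, 2797 and 2658 CPM in untreated replicates 1 to 3. All BPA values lay below all untreated ones, with a log2 fold change of -0.73 (SE 0.13, edgeR adjusted p = 0.0036), -0.82 without BPA replicate 2 and -0.48 with GC and length corrected. It passed without each library in turn (edgeR adjusted p up to 0.0414). Its paralogue Eif5a2 was at 55.5, 15.4 and 37.6 CPM in BPA cultures, against 26.2, 29.1 and 26.7 CPM in untreated cultures, with overlap through BPA replicate 2. It did not pass with all libraries (edgeR adjusted p = 0.553), passed as higher without BPA replicate 2 at 0.77 (edgeR adjusted p = 0.0373), and was at -0.01 with GC and length corrected.

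The enzymes that make hypusine, named here after their values were seen, lay on the same side as Eif5a. The deoxyhypusine synthase gene Dhps was at 155, 177 and 139 CPM in BPA cultures, against 227, 237 and 183 CPM in untreated cultures. The hydroxylase gene Dohh was at 325, 369 and 262 CPM in BPA cultures, against 483, 511 and 395 CPM in untreated cultures. In both genes all BPA values lay below all untreated ones, and neither passed with all libraries (log2 fold change -0.46 and -0.54, SE 0.17 and 0.17, edgeR adjusted p = 0.105 and 0.0568). Both passed without BPA replicate 2 (edgeR adjusted p = 0.014 and 0.00484). With GC and length corrected they were at -0.19 and -0.18 and did not pass (edgeR adjusted p = 0.308 and 0.258). Eif6, whose product keeps the ribosomal subunits apart, was at 739, 921 and 698 CPM in BPA cultures, against 827, 808 and 740.4 CPM in untreated cultures, and overlapped (log2 fold change -0.01, SE 0.14, edgeR adjusted p = 0.978). Eif2c5, the Argonaute-named gene, was at 3.60, 0.892 and 2.61 CPM in BPA cultures, against 0.767, 1.18 and 0 CPM in untreated cultures.

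**Figure D4:**
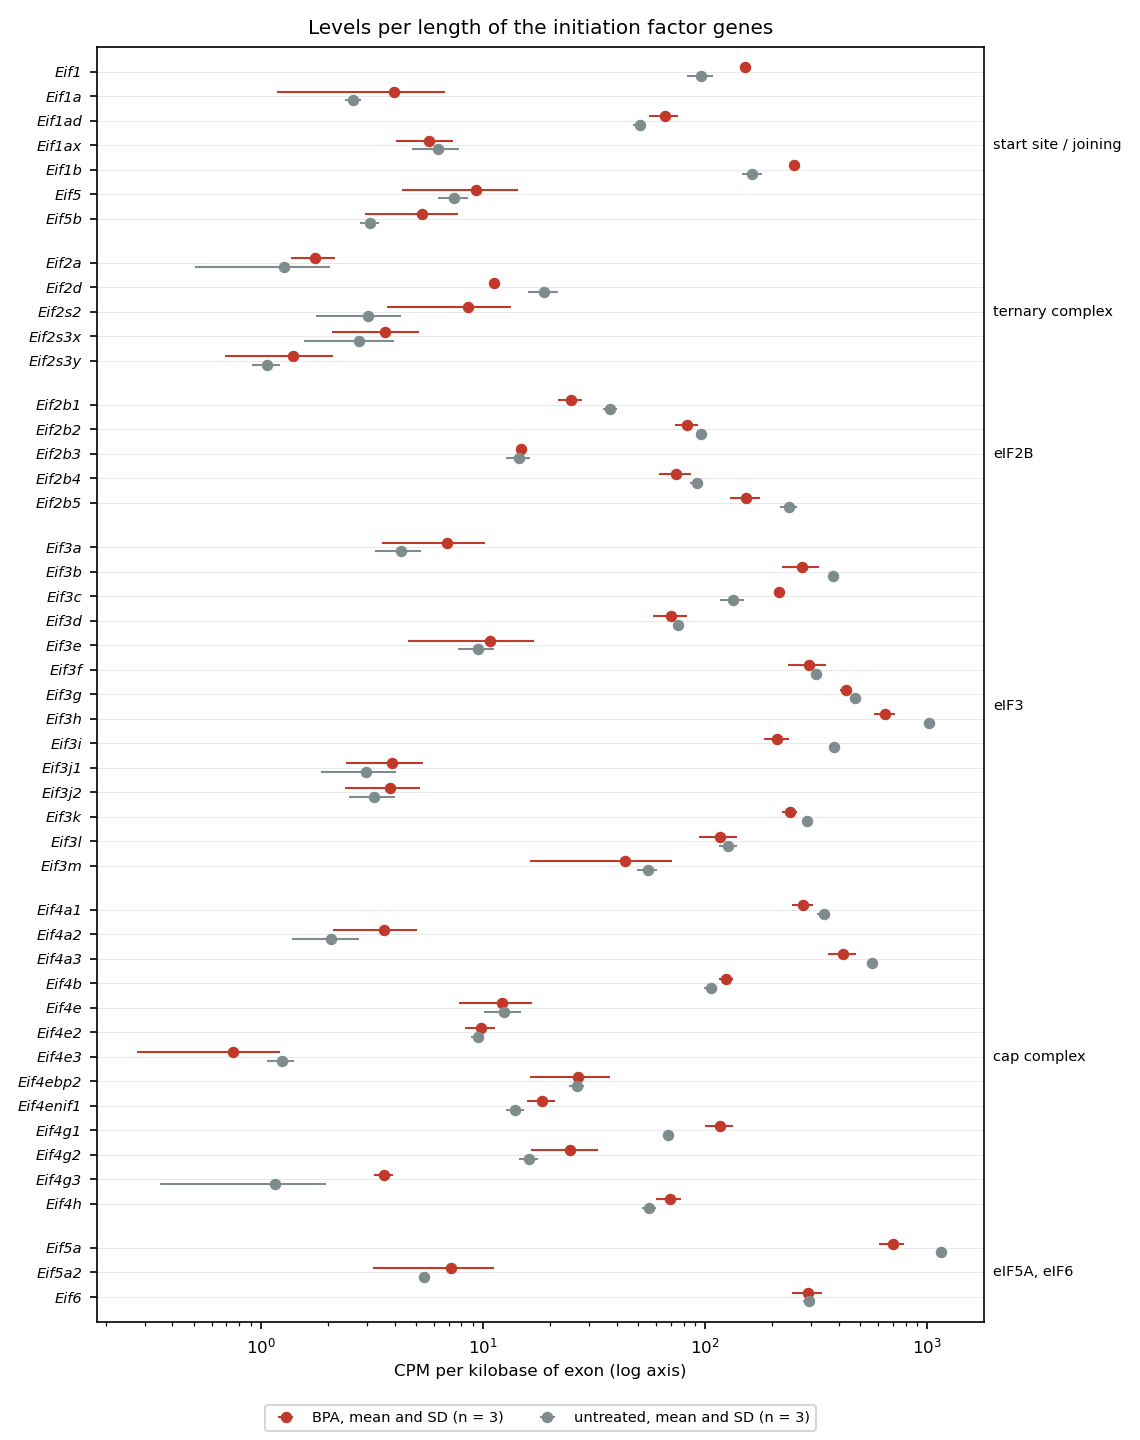
Rows are the 47 tested initiation factor genes by role, and points give the mean CPM per kilobase of exon on a log axis with bars for the SD over 3 libraries, BPA in red above untreated in grey. Mean levels run from 0.749 to 698 in BPA and from 1.06 to 1155 in untreated cultures, with Eif5a and Eif3h on top.

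Levels per length differed widely between genes of the same complex. Eif3h had 644 ± 69.2 CPM per kilobase in BPA cultures and 1021 ± 47.9 in untreated cultures, and Eif3e had 10.7 ± 6.16 CPM per kilobase in BPA cultures and 9.46 ± 1.73 in untreated cultures. Eif4a1 had 276 ± 29.9 CPM per kilobase in BPA cultures and 341 ± 21.8 in untreated cultures, and Eif4a2 had 3.58 ± 1.46 CPM per kilobase in BPA cultures and 2.08 ± 0.699 in untreated cultures. In untreated cultures the median was 3.25 CPM per kilobase for tested genes below 45% GC (47 genes in all, without Eif2c5) and 101 CPM per kilobase for the others, with a Spearman's rho of 0.69 between level and GC content. These points come from the same 3 libraries. The exon union counts every annotated isoform. It was 6719 bases for Eif3e and 1612 for Eif3h, where the deposited FPKM values imply 1541 and 1253. For Eif4a1 and Eif4a2 it was the shorter, at 4334 and 5338 against 9326 and 16090. Whether this order of levels reflects transcript abundance, recovery of AT-rich transcripts or the length used was not tested. Levels set across genes carry these limits.

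Regulators that act on these factors were taken as a list of 34 genes, all tested. Of these, 5 were higher (14.7%) and 1 lower (2.94%), beside 4.37% and 6.28% of all genes tested, at a median of 0.39 (log2 fold change). With GC and length corrected the median was 0.066, beside 0.016 over all genes tested. The count was 12 and 4 without BPA replicate 2, where 8.81% and 11.7% of all genes tested passed, and 6 and 2 with GC and length corrected, beside 6.56% and 9.03%. It was 3 and 1 without BPA replicate 1, beside 1.64% and 2.51%, and 3 and 1 without BPA replicate 3, beside 2.15% and 3.08%. It was 2 and 1 without untreated replicate 1, beside 1.18% and 2.06%, and 2 and 1 without untreated replicate 2, beside 1.41% and 2.31%. Leaving out untreated replicate 3 gave 4 and 1, beside 2.44% and 3.44%. Ppp1r15b, which directs a phosphatase to eIF2 and so reverses its phosphorylation, was at 207, 275 and 253 CPM in BPA cultures, against 97.1, 92.8 and 109 CPM in untreated cultures. It rose by 1.30 (SE 0.17, edgeR adjusted p = 0.000552; 1.21 without BPA replicate 2) and passed without each library in turn. Ppp1r15a, its stress-induced relative GADD34, was at 250.02, 322 and 272 CPM in BPA cultures, against 181, 212 and 192 CPM in untreated cultures, with 0.53 (SE 0.15, edgeR adjusted p = 0.047) and 0.42 without BPA replicate 2, and no longer passed when any library but BPA replicate 2 was removed (up to 0.197). The phosphatase subunit gene Ppp1ca was at 1436, 1888 and 1401 CPM in BPA cultures, against 2778, 2839 and 2688 CPM in untreated cultures, with a log2 fold change of -0.81 (SE 0.14, edgeR adjusted p = 0.00291) and -0.96 without BPA replicate 2.

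Pabpc4, a poly(A)-binding protein that contacts eIF4G, was at 145, 195 and 183 CPM in BPA cultures, against 94.5, 77.1 and 79.1 CPM in untreated cultures, a rise of 1.06 (SE 0.18, edgeR adjusted p = 0.00305) and of 0.97 without BPA replicate 2. Both Ppp1ca and Pabpc4 passed without each library in turn. Mcts2, a retrocopy of the tRNA-release factor gene Mcts1 whose reads are therefore uncertain, was at 28.5, 22.5 and 23.6 CPM in BPA cultures, against 9.75, 4.71 and 10.2 CPM in untreated cultures (log2 fold change 1.60, SE 0.36, edgeR adjusted p = 0.016, and 1.66 without BPA replicate 2). It lost the threshold without BPA replicate 1 or untreated replicate 1 or 2 (up to 0.0757). Rps6, a ribosomal protein phosphorylated downstream of mTOR and a gene with many processed copies, was at 2497, 2689 and 2380.1 CPM in BPA cultures, against 1867, 1883 and 2008 CPM in untreated cultures (log2 fold change 0.39, SE 0.11, edgeR adjusted p = 0.0432). Without BPA replicate 2 it was at 0.35, and with GC and length corrected at 0.82. It lost the threshold without BPA replicate 1 or 3 or untreated replicate 1 or 2 (up to 0.194). Of the genes left out of the choice by name, Eif4ebp1, an eIF4E repressor and known ATF4 target, was at 418, 567 and 446 CPM in BPA cultures, against 214, 174 and 173 CPM in untreated cultures (log2 fold change 1.35, SE 0.17, edgeR adjusted p = 0.000432, and 1.21 without BPA replicate 2). Also left out was Eif2s1, the phosphorylated eIF2 subunit, at 106, 31.5 and 89.5 CPM in BPA cultures, against 61.03, 79.3 and 61.1 CPM in untreated cultures (edgeR adjusted p = 0.811). Its BPA replicate 2 was the lowest of the 6 libraries, and without it Eif2s1 passed as higher (edgeR adjusted p = 0.0435). Of the 5 tested genes left out by name, 3 were higher without BPA replicate 2, beside 8.81% of all genes tested. With GC and length corrected 1 of them was higher, beside 6.56%. The corrected value of Eif2s1 is not given here.

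The later steps of translation, taken as a list of 17 elongation, termination and recycling genes, had 1 of 16 tested genes higher (6.25%) and 2 lower (12.5%), beside 4.37% and 6.28% of all genes tested, with a median log2 fold change of 0.28. With GC and length corrected the median was 0.14. Without BPA replicate 2 the counts were 3 and 2, beside 8.81% and 11.7%, and with GC and length corrected 4 and 4, beside 6.56% and 9.03%. Without BPA replicate 1 or 3 they were 0 and 1, and without untreated replicate 1 or 2 they were 0 and 0. Without untreated replicate 3 they were 1 and 2. The shares of all genes tested in these fits were those given for the regulators. Eef1d, a subunit of the exchange factor of elongation, was at 829, 897 and 706 CPM in BPA cultures, against 1206, 1274 and 1264 CPM in untreated cultures, with -0.62 (SE 0.13, edgeR adjusted p = 0.0108) and -0.70 without BPA replicate 2. Eef1g, from the same complex, was at 3691, 4385 and 3676 CPM in BPA cultures, against 5317, 5580.3 and 5462 CPM in untreated cultures, with -0.48 (SE 0.11, edgeR adjusted p = 0.0191) and -0.56 without BPA replicate 2. Hbs1l, a GTPase that rescues stalled ribosomes, was at 44.4, 28.0 and 55.2 CPM in BPA cultures, against 14.1, 13.97 and 21.8 CPM in untreated cultures, with 1.36 (SE 0.32, edgeR adjusted p = 0.0187) and 1.59 without BPA replicate 2. Their calls were lost without untreated replicate 1 or 2, and those of Eef1g and Hbs1l also without BPA replicate 1 or 3 (up to 0.0782, 0.127 and 0.105).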

How the data were processed

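The authors deposited 1 table with raw gene counts and FPKM values for each library, per the file headers. TopHat2 2.0.9, HTSeq and mm10 stand in the submitters' processing notes. The library kit was TruSeq RNA v2, per the labels' protocols, a kit that does not mark strand. The sources used here give neither annotation release nor strand setting. The deposited FPKM values divide counts by a gene length that exceeded the gene's own span for 684 of 8711 genes with at least 50 counts in every library, so levels per length used CPM per kilobase of the exon union in GENCODE M21 (98.6% of identifiers found), which also gave GC content.

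Counts were filtered with filterByExpr, TMM-scaled and tested with edgeR 4.0.16 (R 4.3.3), with no replicate block and a threshold of 0.05. The SE is the log2 fold change over the square root of F. The alternatives were DESeq2 1.42.0, limma-voom (limma 3.58.1), other scalings and filters, a threshold of 0.01, a replicate block, leaving out each library, and a lowess correction (span 0.3) for GC content and length. RefSeq promoter windows gave the sequences. The tests were also run on simulated counts. Intervals and floors (3 counts) cover counting error only.

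The genes and lists were chosen with earlier results of these data known. The rule named every initiation factor gene past the threshold, the 2 most abundant per length in each role group and their paralogues (19 genes), the genes without counts and, from the lists of regulators and later steps, those past the threshold. Further members were named after their values were seen. Figures used matplotlib 3.10.9.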

Additional observations from a re-analysis of the deposited data

How the results depend on the processing

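All 10 initiation factor genes that passed kept their direction under every alternative run. Their calls held in DESeq2, in limma-voom, under every scaling and filter and after the GC and length correction. At a threshold of 0.01, 2 remained higher and 3 lower. Among initiation factor genes the number higher was 8 with no low-count filter and ranged from 0 to 13 over the fits without 1 library, and the number lower was 8 with DESeq2 size factors, 8 in DESeq2, 8 with a replicate block and 9 after the GC and length correction, ranging from 2 to 10. Over all tested genes 580 were higher and 835 lower. The number higher was 938 in DESeq2, 927 with no low-count filter, 155 at 0.01 and 872 after the correction (162 to 1207 without 1 library), and the number lower was 322 at 0.01 (282 to 1600). With plain library sizes 831 were higher and 786 lower. Regulators had 8 higher in DESeq2, 8 with no low-count filter and 2 at 0.01 (2 to 12 without 1 library), and 2 lower with DESeq2 size factors, library size scaling, limma-voom, no low-count filter, a replicate block or the correction and 3 in DESeq2 (1 to 4). The later steps had 2 higher in DESeq2 or with no low-count filter, 0 at 0.01 and 4 after the correction (0 to 3), and 0 lower at 0.01 and 4 after the correction (0 to 2). The stricter threshold gives fewer calls by construction, and the cause of the other moves, such as the gain without BPA replicate 2, was not tested.

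Signs turned for named genes that had not passed, and the list here is not complete. With GC and length corrected Eif2b3 was at -0.32 and Eif4e2 at -0.24, against 0.03 and 0.05 uncorrected. In that fit Eif3g was at 0.18, Eif6 at 0.22, Eif2b2 at 0.12, Eif5a2 at -0.0093, Eif5 at -0.21 and Eif3e at -0.25. With plain library sizes Eif6 was at 0.087 and Eif4e at 0.10. A replicate block gave -0.0074 for Eif3e, and limma-voom -0.0697. Over the fits without 1 library the log2 fold change ran from -0.14 to 0.0724 for Eif6, -0.0365 to 0.77 for Eif5a2, -0.11 to 0.68 for Eif5, -0.18 to 0.59 for Eif3e, -0.86 to 0.0616 for Eif3m and -0.21 to 0.25 for Eif4e.

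The replicate numbers do not pair the libraries in the labels. Deviations from the group mean correlated at -0.02, 0.06 and 0.07 (Pearson's r over 13287 genes) for numbers 1, 2 and 3, and BPA replicate 1 correlated best with untreated replicate 3. With a replicate block 5 initiation factor genes were higher and 8 lower, beside 721 and 985 of all 13287 genes tested. Precision was limited by 3 libraries per group, with a biological coefficient of variation of 0.44 over all genes, and further by counting error for low-count genes such as Eif4e3 and Eif2s3y.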
